A study of Mus musculus with 2 samples.

Results

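Naive and memory T cell genes are described here through 7 members, Lef1, Tcf7, Satb1, Klf2, Il7r, Ccr7 and S1pr1, of 31053 genes counted in mouse tumour cells. The members were listed by name and were chosen by measured values of these data: their levels and shares in T, NK and B cells, the split by CD8 and their overlap with Nkg7 and Gzmb. Those values are therefore given as descriptions. They were read in 8784 of 9747 barcodes, which held 500 genes or more and less than 15% of their UMIs (unique molecular identifiers, each a counted transcript) in mitochondrial genes. A T barcode held at least 2 UMIs of Cd3d, Cd3e and Cd3g together, and there were 878 of them. They were divided by Cd8a and Cd8b1 into 521 barcodes without a UMI of either (CD8-negative) and 357 with at least 1 (CD8-positive). NK barcodes (155) held Ncr1 or Klrb1c and no Cd3 UMI, and B barcodes (123) held at least 2 UMIs of Cd79a and Cd79b.

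The study concerns inhibitors of ACSS2 in breast cancer of the triple negative kind, and pooled 3 ACSS2i-treated and 3 vehicle samples of tumor tissue on 1 droplet lane. ACSS2 is an enzyme that makes acetyl-CoA from acetate. The strain is given as "NGS mouse", the design text names Bmal1 status, which no sample label gives, and age, sex and tumour line are not known here. The samples were marked by 6 antibody tags (U2, U3, U4 and D0, D1, D4), but no label ties a tag to ACSS2i or to vehicle. Treatment could therefore not be compared, and the tags are treated as 6 samples of unknown arm. With 1 lane there is no replicate of any cell group, so no test between groups is given in these results. Intervals are exact 95% intervals that cover counting error only, Poisson for levels, Clopper-Pearson for shares and conditional binomial for ratios of levels. For co-detection (barcodes with both, over the number expected), the Clopper-Pearson interval of the joint share was divided by the expected share, taken as fixed.

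A naive T cell circulates between blood and lymphoid organs until it meets its antigen, and a central memory T cell keeps much of that programme. The programme pairs transcription factors that hold the cell quiescent with receptors that guide it: one receives a survival signal, others steer entry into and exit from lymph nodes. Activated killer T cells lower most of these genes as they take up granzymes and related proteins, which is why the members were read here against Nkg7 and Gzmb.

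All 8 T cell markers (the 3 Cd3 chains, Trac, Trbc1, Trbc2, Cd2 and Lck) had UMIs in T barcodes, at 2276 CPM together (CPM is the UMIs of a gene per 1000000 UMIs of all genes). Transcripts of other cells were present too. Of the 878 T barcodes, 130 (14.8%) carried more than 1 tag, and these held 47.3% of T UMIs. Keratin transcripts Krt8 and Krt18 stood at 636 CPM in T barcodes and 4 fibroblast markers at 1883 CPM, while Pax5 and Krt19 were at 0. Values are therefore also given for 704 unmixed T barcodes. These carried 1 tag, fewer than 5 keratin UMIs and fewer than 2 UMIs of the C1q genes or of Cd79a and Cd79b, and their keratin level was 68.1 CPM. Median depth was 1770.5 UMIs over all T barcodes and 1611.5 UMIs over unmixed ones.

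Promoter windows are shown because the members were detected together in T barcodes, as described further on. RefSeq gives windows on GRCm38.p6, from 250 bases before to 50 after a start, for 5 of the 7 members and 13 starts; Ccr7 and S1pr1 are named only. Capitals mark CpG dinucleotides, and all 4 sequences read 5′ to 3′ on the strand of the gene.
Lef1, chr3:131110047-131110346, plus strand: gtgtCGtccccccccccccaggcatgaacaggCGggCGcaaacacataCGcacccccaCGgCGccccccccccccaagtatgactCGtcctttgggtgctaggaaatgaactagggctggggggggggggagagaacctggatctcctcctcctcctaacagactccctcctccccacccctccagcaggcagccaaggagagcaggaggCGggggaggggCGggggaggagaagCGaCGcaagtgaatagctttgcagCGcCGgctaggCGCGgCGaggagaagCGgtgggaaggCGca
Tcf7, chr11:52282965-52283264, minus strand: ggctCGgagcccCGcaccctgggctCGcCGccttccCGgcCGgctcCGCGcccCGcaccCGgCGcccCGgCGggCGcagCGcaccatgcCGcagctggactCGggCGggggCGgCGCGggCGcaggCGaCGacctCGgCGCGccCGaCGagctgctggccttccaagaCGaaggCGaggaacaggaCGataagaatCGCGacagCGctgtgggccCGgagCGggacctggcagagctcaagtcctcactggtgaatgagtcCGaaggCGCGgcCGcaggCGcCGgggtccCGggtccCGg
Klf2, chr8:72318812-72319111, plus strand: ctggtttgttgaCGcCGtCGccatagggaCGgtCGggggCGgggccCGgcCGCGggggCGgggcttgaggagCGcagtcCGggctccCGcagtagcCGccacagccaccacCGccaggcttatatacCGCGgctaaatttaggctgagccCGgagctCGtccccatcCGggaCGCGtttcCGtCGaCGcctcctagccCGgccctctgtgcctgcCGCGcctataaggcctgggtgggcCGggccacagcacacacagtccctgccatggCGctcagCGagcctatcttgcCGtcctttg
Il7r, chr15:9529827-9530126, minus strand: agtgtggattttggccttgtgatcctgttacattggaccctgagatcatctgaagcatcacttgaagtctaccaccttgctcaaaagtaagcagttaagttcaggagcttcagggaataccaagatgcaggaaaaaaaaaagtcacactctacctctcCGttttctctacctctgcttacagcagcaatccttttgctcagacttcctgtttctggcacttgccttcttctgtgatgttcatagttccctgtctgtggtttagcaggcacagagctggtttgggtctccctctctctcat
The printed window of Tcf7 held 45 CpG, that of Klf2 32, that of Lef1 18 and that of Il7r 1. The median over 32851 mouse windows was 7, and 5.43% of windows had fewer CpG than Il7r while 1.65% had more than Tcf7. The second start of Tcf7 had 17 CpG, and 29.7% of windows had more. Other starts of Lef1 had 21, 8 and 5 CpG. The 5 windows of Satb1 ranged from 3 to 45 CpG. The letters CACCC, the core that KLF proteins bind, were searched on both strands as CACCC and GGGTG. They occurred 3 times in the Lef1 window, 2 times in that of Tcf7, once in that of Klf2 and not in that of Il7r, against 57.5% of all windows with at least 1 match. CTTTGA (reverse TCAAAG), a core bound by TCF and LEF proteins, was in none of the 4 printed windows and in 16.0% of all windows. Another start of Lef1 had it 2 times. GTAAACA (reverse TGTTTAC), a core bound by FOXO proteins, was in 3.65% of all windows and, among the 13 member windows, once, at the second start of Tcf7. Such matches describe letters and not binding.

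Lef1 and Tcf7 are related HMG-box factors that open and repress T lineage genes and partner with beta-catenin. Lef1 (chromosome 3, 131110471 to 131224356, GENCODE M21 on GRCm38) had 243 UMIs in T barcodes, a level of 53.3 CPM (46.8 to 60.5). Its level in unmixed T barcodes was 136 CPM, against 22.9 CPM in unmixed NK barcodes and 0 UMIs in 87 unmixed B barcodes, which allows up to 20.1 CPM. Tcf7 (chromosome 11, 52252371 to 52283014) had 228 UMIs and 50.04 CPM (43.8 to 57.0) in T barcodes. In unmixed barcodes it stood at 119 CPM in T, 61.9 CPM in NK and 13.4 CPM in B, the last from 2 UMIs. Both factors were thus lower in NK and B than in T barcodes over all tags. Over all barcodes the T to NK ratio was 5.58 (3.14 to 10.96) for Lef1 and 1.75 (1.22 to 2.56) for Tcf7. Without tag U3 the unmixed ratios were 1.70 (0.840 to 3.804) and 0.705 (0.430 to 1.18).

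Satb1, a nuclear protein that folds chromatin at AT-rich sites and is needed for thymocyte development, was shared by the 3 lymphoid groups. It was counted 541 times in T barcodes (119 CPM, 109 to 129). Unmixed levels were 304 CPM in T, 193 CPM in NK and 368 CPM in B. Leaving out tag U3 brought the unmixed level to 175 CPM in T beside 184 CPM in NK, a ratio of 0.951 (0.726 to 1.26), so the order of these 2 groups rested on that tag. Over all barcodes other than U3 the level was 70.04 CPM in T and 48.3 CPM in B (12 barcodes with 1 tag, 26 with several). It was nearly absent elsewhere, with 0 UMIs in 349 unmixed macrophage barcodes (C1q genes; up to 1.90 CPM) and 0.0789 CPM in 1068 keratin barcodes with 1 tag (Krt8 and Krt18, without Fscn1). Satb1 lies on chromosome 17, 51736187 to 51833290.

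Klf2, a zinc-finger factor that keeps T cells quiescent and in mouse T cells drives S1pr1, was the least specific member. It had 3329 UMIs in T barcodes, 731 CPM (706 to 756), against 449 CPM in NK, 672 CPM in B and 659 CPM in keratin barcodes. Removing mixed barcodes and those with several tags left 677 CPM in T and 755 CPM in B, but 87.1 CPM in NK. Without U3 the unmixed level was 226 CPM in T and 89.4 CPM in NK, and the T to NK ratio was 2.53 (1.79 to 3.66), against 7.77 (5.62 to 11.04) with U3. The unmixed T to keratin ratio was 0.316 (0.277 to 0.360) without U3 and 0.960 (0.899 to 1.02) with it. Keratin barcodes are deep, at a median of 21474 UMIs, and the part of their free RNA in the Klf2 level of the other groups was not tested. The highest Klf2 level was in endothelial barcodes (Cdh5, Pecam1 and Kdr), at 1172 CPM in 17 unmixed barcodes; in endothelium Klf2 is known as a gene induced by blood flow. The gene spans 72319033 to 72321656 of chromosome 8.

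Among the receptors, Il7r is the alpha chain that binds interleukin 7 and signals through Jak1, Jak3 and Stat5. It had 628 UMIs in T barcodes, 138 CPM (127 to 149), and 340 CPM in unmixed ones. NK barcodes had 18.3 CPM unmixed and B barcodes 0 UMIs, which allows 20.1 CPM. Macrophage barcodes had 128 CPM and 25 unmixed barcodes with Flt3 or Ccl22, markers of dendritic cells, had 449 CPM. Il7r (chromosome 15, 9505788 to 9530176) was therefore low in NK and B but not particular to T.

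Ccr7, the receptor for the lymph node chemokines Ccl19 and Ccl21a, had 380 UMIs and 83.4 CPM (75.2 to 92.2) in T barcodes. In unmixed barcodes it stood at 188 CPM in T, 6.88 CPM in NK (3 UMIs) and 508 CPM in B. The Flt3 or Ccl22 barcodes had the highest level of all groups read, 2354 CPM (2035 to 2710). The T to B ratio was 0.650 (0.514 to 0.828) over all barcodes and 0.371 (0.286 to 0.485) over unmixed ones. U3 was the tag of 84 of 96 B barcodes with 1 tag. Over all barcodes other than U3 the Ccr7 level was 64.8 CPM in T and 50.6 CPM in B. Only 12 of those B barcodes carried 1 tag and 26 carried several, and the latter held 52.0% of the UMIs of all B barcodes. Whether the direction of the T to B ratio rested on U3 therefore cannot be told. Ccr7 lies on chromosome 11, 99144196 to 99155077. Its ligands Ccl19 and Ccl21a had 0 UMIs in T barcodes.

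S1pr1 senses sphingosine 1-phosphate and lets T cells leave lymph nodes. It had 168 UMIs and 36.9 CPM (31.5 to 42.9) in T barcodes. No UMI was counted in 155 NK barcodes, which allows up to 2.39 CPM and a share of up to 1.94% of barcodes with a UMI, at a median of 3728 UMIs. With that floor of 3 counts over the group, the T level was at least 15.4-fold higher than in NK barcodes. Among barcodes with 1 tag other than U3, S1pr1 had 33 UMIs in T, under the minimum of 50, and the bound was 4.31-fold. Unmixed levels were 93.8 CPM in T, 100.3 CPM in B and 260 CPM in endothelial barcodes, a cell type that also uses S1pr1. Over all barcodes other than U3 the level was 15.7 CPM in T and 27.6 CPM in B (12 barcodes with 1 tag, 26 with several). S1pr1 spans 115710433 to 115715072 of chromosome 3.

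**Figure D1:**
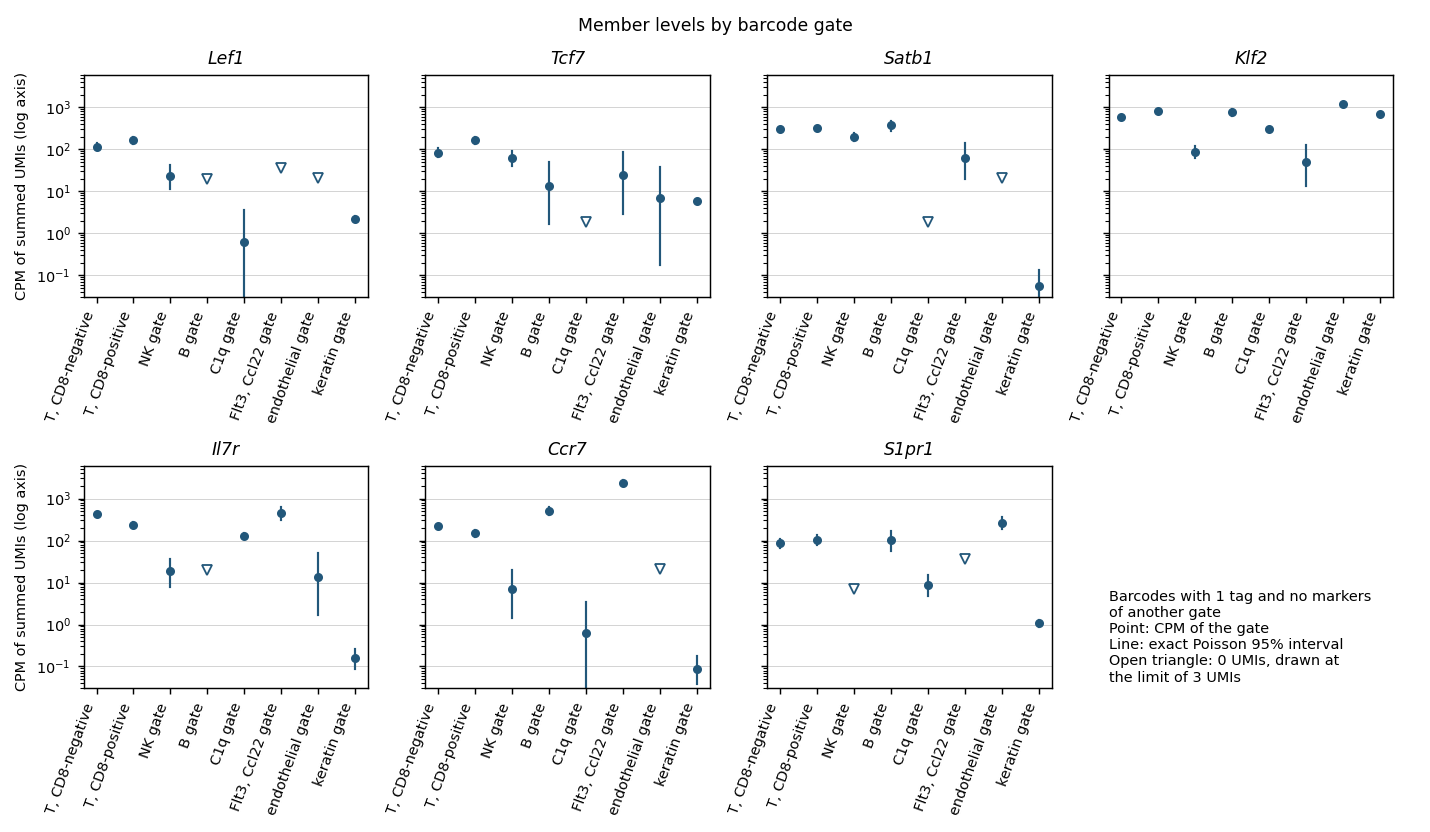
Level of each member (CPM of summed UMIs, log axis) in 8 groups of barcodes with 1 tag and no markers of another group, with exact Poisson 95% intervals; the keratin group drawn here also takes barcodes with Fscn1. Lef1 stands highest in both T groups, Ccr7 in the Flt3 or Ccl22 barcodes (2354 CPM), Klf2 and S1pr1 in endothelial barcodes (1172 and 260 CPM), and open triangles mark 0 UMIs at the limit of 3.

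The members summed to 1211 CPM (1179 to 1243) in T, against 573 CPM in NK and 977 CPM in B barcodes. Lef1, Il7r, Ccr7 and S1pr1, 4 members of 7, were at least 2-fold higher in T than in NK and none lower. Of 8188 genes with at least 50 UMIs, 4.36% were 2-fold higher in T and 1.56% 2-fold lower. Among barcodes with 1 tag other than U3, Il7r and Ccr7 alone of 6 members with enough UMIs were 2-fold higher, beside 6.53% of 5771 genes. In unmixed barcodes without U3 these were Il7r, Ccr7 and Klf2, beside 10.8% of 3778 genes. Against B, over all barcodes, 3 members (Lef1, Tcf7 and Il7r) were at least 2-fold higher and none lower. Of 7965 genes, 8.65% were 2-fold higher and 1.88% 2-fold lower. Among barcodes with 1 tag the same 3 were higher and Ccr7 was 2-fold lower in T (0.486, 0.376 to 0.633). Beside this, 15.1% of 5919 genes were higher and 2.64% lower. In unmixed barcodes the same calls held, with Ccr7 at 0.371, beside 25.2% of 4002 genes higher and 4.70% lower. These contrasts chose the members, so nothing is read from the counts.

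A UMI of any member was seen in 672 of 878 T barcodes (76.5%, 73.6 to 79.3). With each barcode thinned to 1000 UMIs, which left 831, the share was 59.9%. Thinned shares in T barcodes were 12.5% for Lef1, 12.8% for Tcf7, 23.3% for Satb1, 32.9% for Klf2, 24.1% for Il7r, 13.2% for Ccr7 and 7.34% for S1pr1. In keratin barcodes, which should lack the T cell genes, thinned shares were 0.515% for Lef1, 0.463% for Tcf7 and at most 0.103% for Satb1, Il7r, Ccr7 and S1pr1. The Klf2 share in keratin barcodes was 39.7%, above that in T, so keratin barcodes give no floor for Klf2. What part of the Klf2 share in T barcodes is their own expression was not tested. By tag, thinned Klf2 shares in unmixed barcodes ran from 3.45% to 72.4% in T and from 6.90% to 16.7% in NK. The other 6 members stood above their keratin shares. Unthinned shares in T barcodes were 19.0% for Lef1, 19.2% for Tcf7, 36.1% for Satb1, 44.5% for Klf2, 38.4% for Il7r, 19.7% for Ccr7 and 13.9% for S1pr1.

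CD8-negative and CD8-positive T barcodes differed by member. Lef1 and Tcf7 were lower in CD8-negative barcodes, and Il7r was higher. Lef1 stood at 36.7 CPM in CD8-negative and 86.9 CPM in CD8-positive barcodes, a ratio of 0.423 (0.326 to 0.548). Tcf7 stood at 37.1 CPM in CD8-negative and 76.3 CPM in CD8-positive barcodes, a ratio of 0.486 (0.371 to 0.635). Il7r had 146 CPM in CD8-negative and 121 CPM in CD8-positive barcodes, a ratio of 1.21 (1.02 to 1.45). Satb1 had a ratio of 0.644 (0.541 to 0.766) and S1pr1 one of 0.644 (0.469 to 0.885). The intervals for Ccr7 (0.897, 0.724 to 1.12) and Klf2 (1.002, 0.932 to 1.08) included 1. No member was 2-fold higher and 2 were 2-fold lower, beside 2.57% of 7537 genes 2-fold higher and 1.65% 2-fold lower. The summed level was 1163 CPM in CD8-negative and 1307 CPM in CD8-positive barcodes.

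These ratios moved with the barcodes that entered. Multiple-tag barcodes held 55.0% of UMIs in CD8-negative and 31.6% in CD8-positive barcodes, and keratin stood at 707 CPM in CD8-negative and 493 CPM in CD8-positive barcodes. In unmixed barcodes the Lef1 ratio was 0.715 (0.534 to 0.955), from 116 CPM in CD8-negative and 162 CPM in CD8-positive barcodes. The Tcf7 ratio was 0.498 (0.360 to 0.683). Satb1 had a ratio of 0.942 (0.777 to 1.14) and S1pr1 one of 0.828 (0.582 to 1.18). Both intervals included 1, unlike those over all barcodes. Il7r stood at 426 CPM in CD8-negative and 231 CPM in CD8-positive barcodes, a ratio of 1.84 (1.51 to 2.25). Ccr7 stood at 219 CPM in CD8-negative and 149 CPM in CD8-positive barcodes, a ratio of 1.47 (1.14 to 1.90). Klf2 was lower, at 578 CPM in CD8-negative and 802 CPM in CD8-positive barcodes, a ratio of 0.720 (0.634 to 0.818). Leaving out tag U3 as well gave 1.87 (1.40 to 2.53) for Klf2, 2.51 (1.90 to 3.36) for Il7r and 1.69 (1.19 to 2.44) for Ccr7. Lef1 (0.855, 0.445 to 1.66) and Tcf7 (0.737, 0.398 to 1.37) then rested on 42 and 47 UMIs, with intervals that included 1. The intervals of Satb1 (1.17, 0.858 to 1.60) and S1pr1 (1.28, 0.586 to 2.97) also included 1, and S1pr1 was under the minimum of 50 UMIs. The summed ratio, 0.8896 over all barcodes, was 0.935 (0.866 to 1.01) in unmixed ones and 1.64 (1.43 to 1.89) without U3, where the sum stood at 1129 CPM in CD8-negative and 687 CPM in CD8-positive barcodes. The directions of Klf2 and of the sum thus turned on 1 tag, while Il7r was higher in CD8-negative barcodes in all 3 sets.

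**Figure D2:**
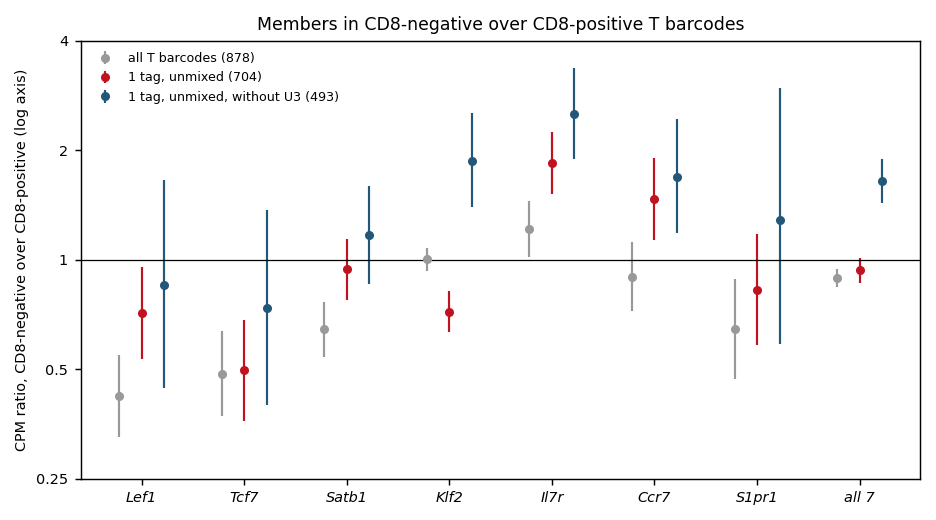
CPM ratio of each member and of their sum in CD8-negative over CD8-positive T barcodes (log axis), for all 878 barcodes, the 704 unmixed ones and the 493 of these without tag U3, with exact 95% intervals. Il7r lies above 1 in each set, at 1.21, 1.84 and 2.51, and Klf2 lies at 0.720 in the unmixed set and at 1.87 once U3 is left out of it.

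CD8-negative barcodes include regulatory T cells, which carry Foxp3. In 72 T barcodes with a Foxp3 UMI, Lef1 and Tcf7 each stood at 3.799 CPM (1 UMI). In 452 CD8-negative barcodes without one, Lef1 stood at 39.7 CPM and Tcf7 at 40.1 CPM. Il7r stood at 300.1 CPM in the Foxp3 barcodes and 132 CPM in the others, and Ccr7 at 209 CPM in the Foxp3 barcodes and 68.0 CPM in the others. Satb1 stood at 148 CPM in the Foxp3 barcodes and 97.4 CPM in the others. Klf2 was lower in the Foxp3 barcodes, at 387 CPM against 762 CPM in the others. Multiple-tag barcodes held 33.9% of UMIs in the Foxp3 barcodes and 56.9% in the others, and their part in these values was not tested. In unmixed barcodes without U3, Il7r stood at 477 CPM in 56 Foxp3 barcodes and 350.0 CPM in 245 others, and Ccr7 at 337 CPM in the Foxp3 barcodes and 138 CPM in the others. Lef1 was then at 8.22 CPM in the Foxp3 barcodes and 44.0 CPM in the others, and Klf2 at 263 CPM in the Foxp3 barcodes and 280.0 CPM in the others.

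Other gene lists gave a setting for the same division. Of 16 other naive and central memory genes, 15 had enough UMIs and none was 2-fold higher in CD8-negative barcodes; Bcl2, Dapl1 and Ms4a4b were 2-fold lower (named after their values were seen), and the median ratio was 0.832 beside 1.02 over all genes. The 4 with the most UMIs were Igfbp4, Ms4a4b, Id3 and Ets1. Igfbp4 stood at 687 CPM in CD8-negative and 447 CPM in CD8-positive barcodes. Ms4a4b stood at 269.9 CPM in CD8-negative and 678 CPM in CD8-positive barcodes. Id3 stood at 339.8 CPM in CD8-negative and 223 CPM in CD8-positive barcodes. Ets1, a factor needed for T cell survival, stood at 232 CPM in CD8-negative and 282 CPM in CD8-positive barcodes. In unmixed CD8-negative barcodes Igfbp4 stood at 156 CPM and Id3 at 49.8 CPM, so most of their level over all T barcodes was in mixed or multiple-tag barcodes.

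Of 10 measured cytotoxic genes, 9 were 2-fold lower in CD8-negative barcodes. Ccl5, a chemokine of killer cells, stood at 368 CPM in CD8-negative and 1724 CPM in CD8-positive barcodes, and Nkg7 at 160.1 CPM in CD8-negative and 846 CPM in CD8-positive barcodes. Of 6 regulatory T genes, 5 were 2-fold higher. Ikzf2 stood at 373 CPM in CD8-negative and 176 CPM in CD8-positive barcodes, and Tnfrsf4, a costimulatory receptor, at 356 CPM in CD8-negative and 81.6 CPM in CD8-positive barcodes. Of 6 measured exhaustion genes, Pdcd1 and Lag3 were 2-fold lower, with Pdcd1 at 38.4 CPM in CD8-negative and 105 CPM in CD8-positive barcodes. Of 4 measured residence genes, Cxcr6 and Itga1 were 2-fold lower, with Cxcr6 at 57.4 CPM in CD8-negative and 172 CPM in CD8-positive barcodes. Over these barcodes the 8 T cell markers themselves had a median ratio of 0.581. Among barcodes with 1 tag, 7 of 10 cytotoxic, 0 of 6 exhaustion and 1 of 4 residence genes (Itga1) were 2-fold lower. All 6 regulatory genes were then 2-fold higher, beside 3.09% of 5527 genes higher and 1.61% lower. Unmixed ratios were 0.518 for Pdcd1, 0.674 for Lag3 and 0.544 for Cxcr6.

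The partners that carry the receptors' signals differed little between the CD8 groups. None of 7 measured partners was past 2-fold over all barcodes, and their median ratio was 0.792. Gnai2, an inhibitory G protein subunit of the kind used by Ccr7 and S1pr1, stood at 652 CPM in CD8-negative and 612 CPM in CD8-positive barcodes. Jak1 stood at 155 CPM in CD8-negative and 209 CPM in CD8-positive barcodes. Il2rg, the common chain that pairs with Il7r, stood at 107 CPM in CD8-negative and 135 CPM in CD8-positive barcodes. In unmixed barcodes Stat5a was 2-fold higher, at 69.7 CPM in CD8-negative and 33.0 CPM in CD8-positive barcodes, beside 5.10% of 3746 genes. None of 5 measured beta-catenin co-factors was past 2-fold, with Ctnnb1 at 134 CPM in CD8-negative and 113 CPM in CD8-positive barcodes. Il7 itself had 9 UMIs in T barcodes, and Sphk1, an enzyme that makes sphingosine 1-phosphate, had 76. Of 11 paralogs, 5 had enough UMIs and none was past 2-fold, with Klf6 at 662 CPM in CD8-negative and 553 CPM in CD8-positive barcodes. S1pr5 had 0 UMIs.

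The summed level of the members stood apart in 1 of the 6 tags. Among 748 T barcodes with 1 tag, the summed level was 840 CPM in U2, 3329 CPM in U3, 1165 CPM in U4, 790 CPM in D0, 906 CPM in D1 and 1082 CPM in D4. U3 was the highest, and the other 5 tags lay within 790 to 1165 CPM. Without Klf2 the sum of the other 6 members was 1772 CPM in U3, still the highest, with a median of 640 CPM over the 6 tags. U3 gave 29.0% of these barcodes and 22.7% of their UMIs, but 52.4% of member UMIs.

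Lef1 stood at 16.5 CPM in U2, 288 in U3, 65.4 in U4, 29.8 in D0, 21.0 in D1 and 18.0 in D4. Tcf7 stood at 17.5 CPM in U2, 235 in U3, 39.3 in U4, 59.6 in D0, 33.6 in D1 and 36.1 in D4. For both factors the U3 interval lay above the intervals of the other 5 tags. Satb1 had 103 CPM in U2, 477 in U3, 151 in U4, 94.4 in D0, 103 in D1 and 144 in D4. Klf2 had 510 CPM in U2, 1557 in U3, 373 in U4, 372 in D0, 417 in D1 and 54.1 in D4. D4, with 31 T barcodes, was lowest in Klf2 with 3 UMIs.

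The receptors split. S1pr1 followed the factors, with 4.11 CPM in U2, 193 in U3, 78.5 in U4, 29.8 in D0, 18.9 in D1 and 36.1 in D4. Il7r had 129 CPM in U2, 358 in U3, 308 in U4, 144 in D0, 183 in D1 and 595 in D4, so D4 and not U3 was highest. Ccr7 had 60.7 CPM in U2, 220 in U3, 151 in U4, 59.6 in D0, 130 in D1 and 198 in D4, and the intervals of U3 and D4 overlapped. U3 held 78.5% of Lef1 UMIs, 76.1% of S1pr1, 70.7% of Tcf7, 56.6% of Satb1, 50.5% of Klf2, 41.8% of Ccr7 and 37.8% of Il7r.

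**Figure D3:**
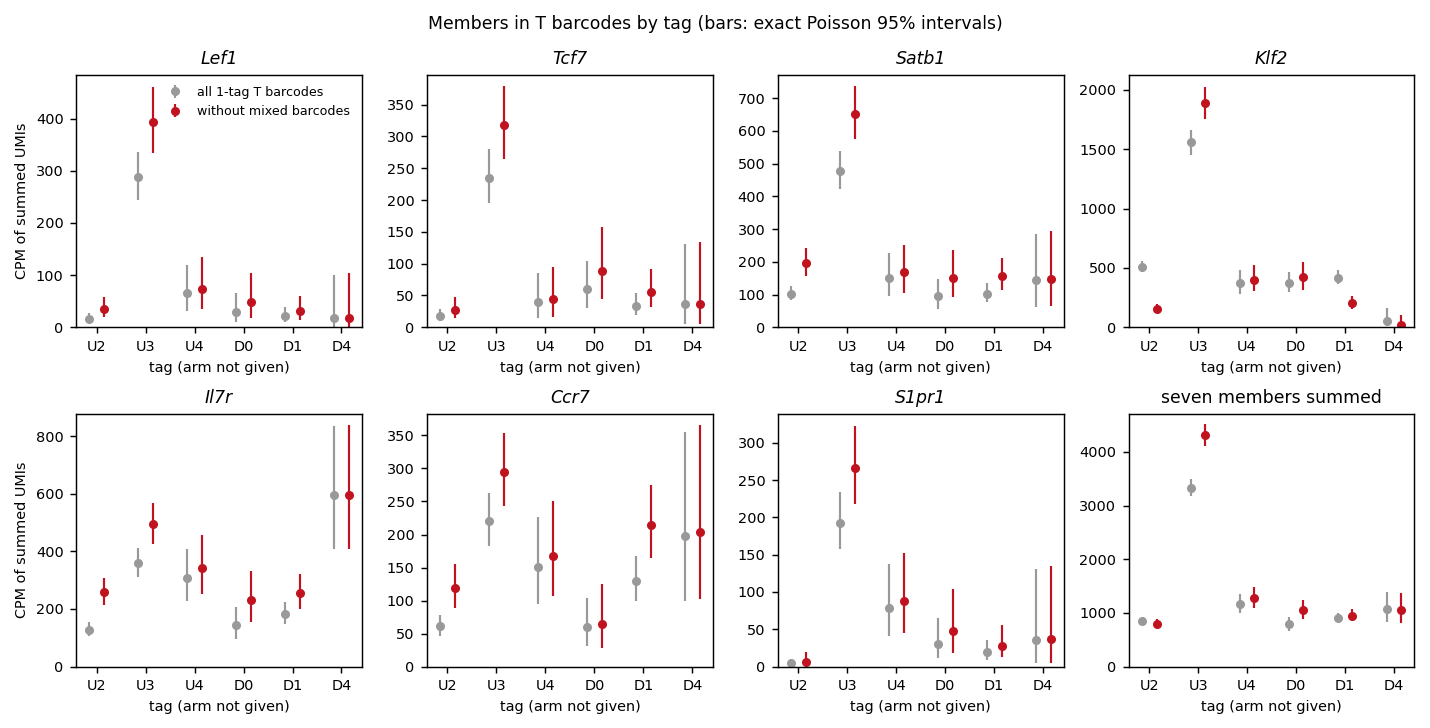
Level of each member and of their sum (CPM of summed UMIs) in T barcodes by tag, for all 748 barcodes with 1 tag in grey and for the unmixed ones in red, with exact Poisson 95% intervals; the arm of a tag is not given. U3 is highest for 6 members and for the sum (3329 CPM), and D4 is highest for Il7r (595 CPM).

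Without mixed barcodes the U3 levels were 394 CPM for Lef1, 318 for Tcf7, 653 for Satb1, 1887 for Klf2, 494 for Il7r, 294 for Ccr7 and 266 for S1pr1. These were higher than with mixed barcodes. Such a rise was not particular to U3. The median over the 6 tags rose from 640 to 812 CPM for the 6 members without Klf2, while that of Klf2 fell from 395 to 304 CPM. The median depth of U3 T barcodes was 1405 UMIs, against 1516 to 1835 UMIs in the other tags. CD8-positive barcodes made up 50.7% of T barcodes in U3, within the 23.7% to 52.9% of the other tags. U3 differed in what else it held. T barcodes made up 35.3% (31.6 to 39.3) of its 614 barcodes, against 9.22% to 17.1% in the other tags, and B barcodes 13.7% against at most 2.30%. Of 96 B barcodes with 1 tag, 84 were U3. Barcodes with at least 5 keratin UMIs made up 24.4% of U3 and 38.0% to 68.5% of the other tags. The part of mixed barcodes, depth and these differences in the member levels was not tested, and the arm and the tumour of U3 cannot be told apart here.

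The members were set against Nkg7, a granule protein of killer cells, and Gzmb, the protease granzyme B. Of 878 T barcodes, 381 held both a member and a cytotoxic UMI, 291 a member only, 172 a cytotoxic UMI only and 34 neither. Co-detection was 0.9002 (0.832 to 0.970) of the number that independent detection would give, and 0.824 (0.726 to 0.928) after thinning to 1000 UMIs. The 2 programmes were thus found together less often than independently. Each was detected in most T barcodes and only 34 held neither, which leaves the unthinned ratio little room below 1. Its size therefore does not tell how exclusive the 2 programmes were.

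Thinned ratios of observed to expected were 0.726 for Lef1, 0.674 for Tcf7, 0.737 for Satb1, 0.583 (0.466 to 0.719) for Klf2, 0.837 (0.672 to 1.03) for Il7r, 0.594 (0.409 to 0.832) for Ccr7 and 0.536 (0.307 to 0.864) for S1pr1. The interval of Il7r alone included 1. By CD8, the thinned ratio of Tcf7 was 0.933 (0.547 to 1.48) in CD8-negative and 0.485 (0.290 to 0.755) in CD8-positive barcodes, and that of S1pr1 was 0.270 (0.0558 to 0.785) in CD8-negative and 0.637 (0.341 to 1.07) in CD8-positive barcodes. The intervals overlapped for both genes. Cytotoxic UMIs were in 52.8% of CD8-negative and 77.9% of CD8-positive barcodes.

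The share of T barcodes with a cytotoxic UMI was lower at each added member up to 6. It was 83.5% of 206 barcodes with no member, 76.0% of 225 with 1, 63.3% of 169 with 2, 41.7% of 108 with 3, 37.8% of 90 with 4, 35.2% of 54 with 5, 17.4% of 23 with 6 and 33.3% of 3 with 7. In unmixed barcodes the order broke, with 38.0% of 79 barcodes with 3 members and 44.4% of 63 with 4. Tags entered into this order. Nkg7 or Gzmb was in 32.3% of U3 T barcodes, and in 67.8% to 81.6% in the other tags, so U3 had many members and few cytotoxic barcodes at once.

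The ratios moved with the tags and barcodes that entered. Leaving out U3 alone gave, without thinning, 0.898 for Lef1, 0.772 for Tcf7, 0.961 for Satb1, 0.587 for Ccr7 and 0.605 for S1pr1. With U3 these were 0.713 for Lef1, 0.705 for Tcf7, 0.816 for Satb1, 0.551 for Ccr7 and 0.586 for S1pr1, so Ccr7 and S1pr1 moved little. Among unmixed barcodes without U3 the summed ratio was 0.945 (0.856 to 1.03), and in U3 it was 0.925 (0.728 to 1.14). A member was in 93.8% of the U3 barcodes, which leaves the summed ratio little room on either side of 1. Lef1 was at 1.08 without U3 and 1.01 in U3. Tcf7 was at 1.02 without U3 and 1.06 in U3, and Satb1 at 1.01 without U3 and 0.827 in U3. Ccr7 was at 0.7999 (0.559 to 1.102) without U3 and 0.733 (0.433 to 1.15) in U3. All 7 intervals included 1 in each of the 2 sets. These intervals take the expected number as fixed and do not use the 2 margins. That they include 1 therefore does not show that detection was independent. Over the tags singly, with mixed barcodes kept, the summed ratio was 0.948 in U2, 0.927 in U3, 0.872 in U4, 0.989 in D0, 0.961 in D1 and 0.963 in D4, so it was under 1 in all 6. Without U3, the cytotoxic share was 85.1% of 174 unmixed barcodes with no member, 77.7% of 175 with 1, 70.1% of 87 with 2, 52.6% of 38 with 3 and 80.0% of 15 with 4, and all 4 barcodes with 5 or 7 members held a cytotoxic UMI.

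**Figure D4:**
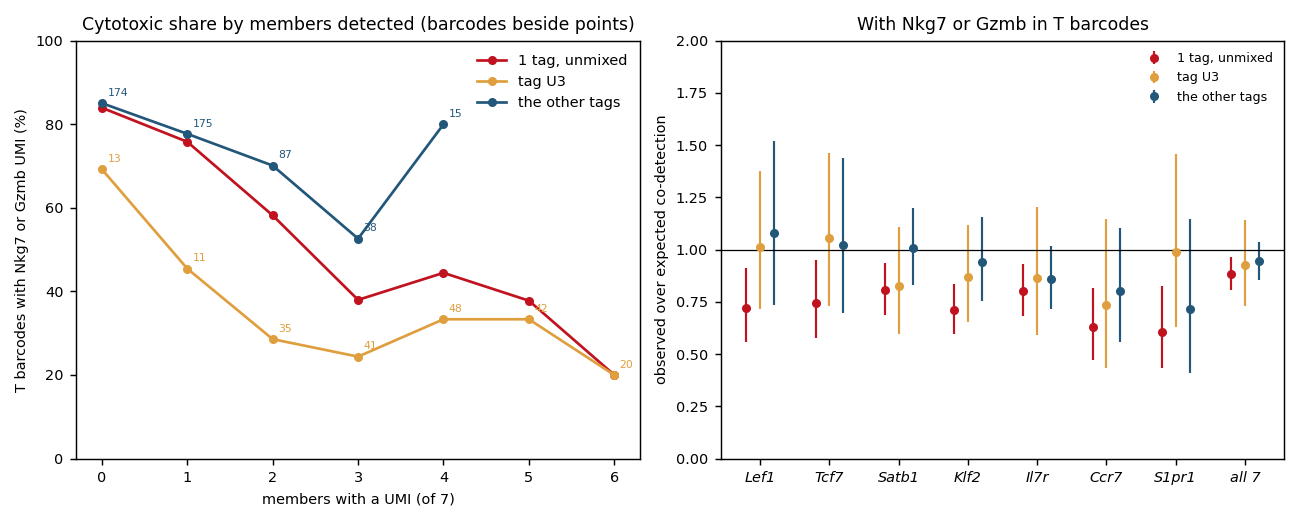
Left, percent of unmixed T barcodes with an Nkg7 or Gzmb UMI by number of members with a UMI, for all tags, U3 and the other tags, at points of 10 or more barcodes. Right, observed over expected co-detection of each member with Nkg7 or Gzmb in the same sets. Bars are exact 95% intervals of the joint share over a fixed expected share. The pooled values lie under 1 for every member, while those of U3 and of the other tags have intervals that include 1.

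The members were also found with each other. In 831 thinned T barcodes all 21 pairs were seen together more often than independent detection gives, from 1.42 times for Il7r with Klf2 to 2.64 times for Lef1 with Tcf7. Lef1 and Tcf7 were together in 35 barcodes, against 13.3 expected. In the 199 unmixed U3 barcodes alone the 21 ratios ran from 0.928 (Tcf7 with Satb1) to 1.49 (Lef1 with Ccr7), so pairs stood closer to 1 within that tag. In 460 unmixed barcodes without U3 the pairs did not all lie above 1. Lef1, Tcf7 and Satb1 were each at 0 with S1pr1, which was in 11 barcodes. Lef1 with Ccr7 was at 0.561, Ccr7 with Klf2 at 0.825 and Tcf7 with Ccr7 at 0.935. Lef1 with Tcf7 was at 2.88, from 3 barcodes, and Klf2 with S1pr1 at 3.07, from 5.

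Genes whose thinned counts were most like the summed members over 831 T barcodes were ribosomal protein genes and Txk. Pearson's r was 0.43 for Rpl12, 0.41 for Rps24, 0.41 for Txk, a Tec family kinase of T cells, and 0.39 for Rps16, and 20 of 5312 genes reached 0.3. The points share 1 lane and a fixed depth. Among 460 unmixed barcodes without U3 no gene reached 0.3, and the highest was Zfp36l1, an RNA-binding protein, at 0.21.

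Barcodes with members only (291) were compared with those with cytotoxic UMIs only (172). The 2 sets differed in make-up: U3 was carried by 49.1% of member-only and 5.23% of cytotoxic-only barcodes. CD8-positive were 26.1% of member-only and 57.6% of cytotoxic-only barcodes, and keratin stood at 777 CPM in member-only and 133 CPM in cytotoxic-only barcodes. Of 4922 genes with at least 50 UMIs, 15.3% were 2-fold higher in member-only barcodes and 8.84% 2-fold lower. In unmixed barcodes 9.73% of genes were past 2-fold in either direction. The sets are defined by Nkg7 and Gzmb, so low levels of other killer cell genes in the member-only set are no independent result. Among the 10 lowest genes were Ccl3, Ccl4, Klre1, Prf1 and Xcl1. The chemokine gene Ccl3 stood at 0.639 CPM in member-only and 244 CPM in cytotoxic-only barcodes, and Ccl4 at 3.19 CPM in member-only and 762 CPM in cytotoxic-only barcodes. The NK receptor gene Klre1 stood at 1.28 CPM in member-only and 221 CPM in cytotoxic-only barcodes, and the perforin gene Prf1 at 6.39 CPM in member-only and 156 CPM in cytotoxic-only barcodes. Xcl1 stood at 7.66 CPM in member-only and 451 CPM in cytotoxic-only barcodes. Highest was the collagen gene Col1a2, at 304 CPM in member-only barcodes with 0 UMIs in cytotoxic-only barcodes, and 2 barcodes held 81.1% of its UMIs.

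A rule added after those values were seen kept genes with a UMI in at least 10% of either set of unmixed barcodes. Among the highest were then Fam241a and Socs3, a feedback inhibitor of cytokine signals. Fam241a stood at 131 CPM in member-only and 9.01 CPM in cytotoxic-only barcodes, and Socs3 at 215 CPM in member-only and 30.0 CPM in cytotoxic-only barcodes. U3 was the tag of 61.8% of these member-only and 5.73% of these cytotoxic-only barcodes. Without U3 the Fam241a fold was 4.24 on 10 UMIs, against 14.6 with U3, and the Socs3 fold 3.09 on 27 UMIs, against 7.16 with U3. The highest without U3 were Cd74, Tnfsf8 and Penk, with Tnfsf8 at 225 CPM in member-only and 41.3 CPM in cytotoxic-only barcodes. In the list of 16 other naive and central memory genes, 6 of 14 measured were 2-fold higher in the member-only set over all barcodes (Foxp1, Klf3, Dapl1, Igfbp4, Actn1 and Id3) and 3 were 2-fold lower (Bcl2, Ms4a4b and Cd27). Foxp1 stood at 171 CPM in member-only and 66.7 CPM in cytotoxic-only barcodes, and Klf3 at 85.0 CPM in member-only and 20.5 CPM in cytotoxic-only barcodes. These 9 genes were named after their values were seen. All 9 measured cytotoxic genes were 2-fold lower in the member-only set, Nkg7 and Gzmb by the definition of the sets.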

How the data were processed

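Single tumour cells were counted in 1 pooled lane with an expression and a protein library, and the authors deposited UMI counts for 31053 genes and 6 tags in 9747 barcodes, taken here as they stand. Per the submitters' processing notes the tools include Cell Ranger and the build is mm10; software version 3.1.0 is named per the file headers. No source used here gives the annotation, or says whether doublets had been removed.

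Barcodes were kept from 500 genes upward if mitochondrial UMIs were below 15%. Tags were called with HTODemux (Seurat 5.3.0, R 4.3.3, positive quantile 0.99, seed 42), which gave 865 barcodes with more than 1 tag and 2329 with none. Gates used summed marker UMIs, and doublets were treated as the barcodes with several tags or mixed markers, kept in the main values and left out beside them. Levels are CPM, summed member UMIs per 1000000 gene UMIs of the gate. Genes were called at 2-fold with at least 50 UMIs over both groups. Shares were thinned to 1000 UMIs per barcode (Python 3.11.15, numpy 2.4.6, scipy 1.17.1, pandas 2.3.3), and fold tables were checked on simulated data. A floor of 3 counts stands for a count of 0. UMI counts of the 3′ end carry no length term.

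The named genes were the 7 members, the 4 genes of each list with the most UMIs in T barcodes, the 10 highest and 10 lowest between member-only and cytotoxic-only barcodes, and those most like the members with r of at least 0.3. Only some of these are printed. Members, lists and gates were chosen with earlier results of these data known. The dendritic gate with Fscn1 took 361 barcodes at a median of 17601 UMIs, against its label, and was replaced by Flt3 and Ccl22. Alternatives were other gene minimums, T gates, depths, tag sets and weightings.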

Additional observations from a re-analysis of the deposited data

Results flagged for a closer look

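In T barcodes with 1 tag, U3 lay far from the other 5 tags in 13 of 18 values examined, where its gap to the nearest tag, as a part of the whole range, exceeded the 95% critical value of Dixon's test. Chance alone gives about 1 such value in 20 groups, and the 18 values are not independent, since members share barcodes. The CPM levels of U3 were 288 for Lef1, 235 for Tcf7, 477 for Satb1, 1557 for Klf2 and 3329 for the 7 members together. Thinned shares of U3 T barcodes with a UMI were 36.6% for Lef1, 34.1% for Tcf7, 47.8% for Satb1, 24.9% for Ccr7, 71.2% for Klf2, 22.9% for S1pr1, 88.8% for any member and 83.4% for any member other than Klf2. For Il7r, neither value stood apart, and D4 was highest. No source used here gives the arm of U3, so these values say nothing of ACSS2i or vehicle. U3 also held 84 of the 96 B barcodes with 1 tag, and its part in the values was not tested.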

How the results depend on the processing

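No paired analysis was possible because 1 lane was read and no label gives the arm of a tag. The summed level in T barcodes (1211 CPM) was 1287 with a minimum of 200 genes and 848 with 1000, 1051 with a T gate from 1 UMI and 1147 from 3 UMIs. It was 1439 without multiple-tag barcodes, 1778 without mixed ones, 1858 without both, 2201 after thinning and 2216 as the mean over barcodes, and without 1 tag it ran from 923 (U3) to 1311 (U2). The CD8-negative to CD8-positive ratio (0.8896) was 1.16 with 1000 genes, 0.713 with a T gate from 1 UMI, 0.959 from 3 UMIs and 0.992 without multiple-tag barcodes, and without 1 tag 0.723 (U2) to 1.21 (U3). The share with a member UMI (76.5%) was 82.2% with 1000 genes, 59.9% thinned and 73.4% without mixed and multiple-tag barcodes, and 70.8% (U3) to 81.7% (U2) without 1 tag. Co-detection (0.9002) was 0.824 thinned, and 0.890 to 0.936 without 1 tag. Genes past 2-fold between member-only and cytotoxic-only barcodes (1188) were 2269 with a T gate from 1 UMI, 395 without multiple-tag barcodes, 238 without mixed ones, 210 without both and 134 thinned, and 1123 to 1245 without 1 tag. The median summed level over tags, 994 CPM, ran from 906 to 1082 without 1 tag. Single ratios between CD8-negative and CD8-positive barcodes turned for Tcf7 (1.14) and S1pr1 (1.05) at 1000 genes and for Satb1 (1.04) thinned. Il7r turned with a T gate from 1 UMI (0.796) and without U2 (0.988), and S1pr1 without U3 (1.15). Il7r at 1.57 without U3 and S1pr1 at 0.534 without U2 kept their direction and lay further from 1. The 6 members without Klf2 (0.748) gave 1.03 without multiple-tag barcodes, 1.05 without mixed ones, 1.09 without both, 1.03 thinned, 1.05 as a barcode mean and, leaving out a tag, 0.607 (U2) to 1.02 (U3). The causes of these changes were not tested. Removing both mixed and multiple-tag barcodes, leaving out U3 within unmixed barcodes, the Foxp3 groups and the Flt3 or Ccl22 group were chosen after seeing the data. Depth limits the members most where few UMIs remain, as for Lef1 and Tcf7 without U3.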
